A study of Mus musculus with 12 samples.

Results

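The genes described here belong to the amino acid response and the unfolded protein response, chosen by symbol from what they are known to do: targets and partners of Atf4, enzymes of serine synthesis and one-carbon metabolism, amino acid transporters, and chaperones of the endoplasmic reticulum. The choice was made with earlier results of these data known, so counts of calls among these genes are not an independent test. It named 34 symbols. Of these, 33 were each measured by at least 1 probe set annotated to that symbol alone, among 18193 genes in all. They were represented by 76 of the 45101 probe sets on the array. The expression of Pycr1 is not analysed here, and it enters only the promoter counts below. After a filter on low values, 31 of the 33 were among the 13811 genes tested. Slc7a11 and Vldlr did not pass it.

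Expression was measured on Affymetrix arrays in mouse embryonic stem cells that were wild type (Tcf3+/+) or knockout (Tcf3-/-). Tcf3 is here the older name of Tcf7l1, a DNA-binding protein of the Wnt pathway that acts mainly as a repressor. Cells of each genotype were kept in control medium or given recombinant Wnt3a, a secreted Wnt ligand, at 50 ng/ml for 24 h, which gave 4 groups of 3 arrays, 12 in all. All groups grew without feeder cells on gelatin, in serum medium with Lif, glutamine, nonessential amino acids and beta-mercaptoethanol. The labels name no cell line or clone, so Tcf3 loss cannot be told apart from anything else in which the 2 cell populations differ. They also do not say whether the replicates were separate cultures, and p-values then reflect only how far these arrays vary, and that variation may be technical.

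When amino acids run short or proteins misfold in the endoplasmic reticulum, kinases phosphorylate the translation factor eIF2, which lowers protein synthesis in general while raising translation of Atf4. Atf4 pairs with other leucine zipper proteins and activates genes for amino acid synthesis and uptake, tRNA charging, and feedback factors such as Ddit3 and Trib3. Misfolded proteins also engage Ire1, which splices Xbp1 mRNA, and Atf6, and these mainly activate chaperone and folding genes. Much of the control of Atf4 is in its translation and that of Xbp1 in splicing, and neither is measured by the intensities reported here.

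The 2 arms of this response have known promoter elements, and stretches that hold them are shown for the members whose values are described most fully below. The sequences come from RefSeq (assembly GRCm38.p6), run 5' to 3' on the strand of the gene, and have the element in capitals. Asns, Atf3, Chac1 and Nupr1 hold the core of the C/EBP-ATF response element bound by Atf4 and its partners, TGATGNAA, which in Atf3, Chac1 and Nupr1 lies on the opposite strand. Hspa5 holds the endoplasmic reticulum stress element, which is CCAAT and CCACG with 9 bases between them. The stretches are chr6:7693210-7693289 (minus strand) for Asns, chr1:191183400-191183479 (minus) for Atf3, chr2:119351013-119351092 (plus) for Chac1, chr7:126625537-126625616 (minus) for Nupr1 and chr2:34771995-34772074 (plus) for Hspa5.
Asns: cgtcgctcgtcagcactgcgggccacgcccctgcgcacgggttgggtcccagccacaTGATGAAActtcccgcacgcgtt
Atf3: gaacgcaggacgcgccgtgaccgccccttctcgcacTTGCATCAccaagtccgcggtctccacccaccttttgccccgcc
Chac1: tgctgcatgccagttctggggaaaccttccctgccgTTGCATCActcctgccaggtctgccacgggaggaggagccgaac
Nupr1: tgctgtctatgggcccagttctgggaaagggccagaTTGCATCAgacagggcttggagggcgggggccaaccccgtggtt
Hspa5: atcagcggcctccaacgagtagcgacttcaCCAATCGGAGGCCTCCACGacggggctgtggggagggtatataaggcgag

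Promoter windows of 250 bases before the start were at hand for 30 of the 34 members. TGATGNAA was found on either strand in 8 of the 30 (26.7%): Asns, Atf3, Chac1, Herpud1, Nupr1, Pycr1, Slc7a11 and Vldlr. It was found in 3.91% of the 27025 genes with such a window. The endoplasmic reticulum stress element was found in 4 of the 30 (13.3%), namely Calr, Hsp90b1, Hspa5 and Pdia6, and in 0.13% of all genes. TGACGTGG, the core of the unfolded protein response element, and TGACGTCA, the cAMP response element, were in 0 of the 30, against 0.603% and 1.77% of all genes. No member held both the C/EBP-ATF core and the endoplasmic reticulum stress element, so these matches do not overlap. A match is a description of letters in this window, and the absence of one says nothing about binding elsewhere.

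The arrays of a group resembled each other closely, with correlations across probe sets of 0.995 to 0.9981. The brighter Tcf7l1 probe set read 10.77 to 10.9 on wild-type and 9.37 to 9.58 on knockout arrays in control medium, and 10.21 to 10.5 and 8.89 to 9.22 with Wnt3a, so the genotypes did not overlap, but a signal remained in the knockout. All 8 embryonic stem cell markers lay above the floor of 5.56 log2 units in every group, and their summed log2 level moved with the groups: 16.07 to 16.18 on wild-type and 16.48 to 16.52 on knockout control arrays, and 16.33 to 16.45 and 16.54 to 16.62 with Wnt3a. Of these 8, 7 were called higher and 0 lower in the knockout in control medium, and 5 higher and 1 lower after Wnt3a in wild type. Over all genes, 19.9% were called higher and 22.3% lower in the first comparison, and 18.9% and 22.6% in the second. The 8 fibroblast and feeder markers had a summed log2 level of 9.07 to 9.53 over the 12 arrays, with Col3a1 and Lum below the floor in every group and Col1a1 in the knockout. The 7 trophectoderm markers summed to 11.5 to 11.79 in wild type and 11.1 to 11.18 in knockout in control medium, and to 11.59 to 11.62 and 10.89 to 11.05 with Wnt3a, with Elf5 below the floor in every group and Gata3 in the knockout. The 7 primitive endoderm markers spread widely over the knockout control arrays, from 8.95 to 11.14, against 9.35 to 9.73 on the wild-type control arrays and 9.74 to 10.15 (wild type) and 10.16 to 10.37 (knockout) with Wnt3a. Of these, Afp was below the floor in every group. The bacterial dap control transcript read 4.35 to 4.48 on the control-medium arrays and 11.6 to 11.82 on the Wnt3a arrays. Medium and preparation therefore cannot be told apart, and each Wnt3a effect below includes both. The 3' minus 5' difference of actin probe sets, a sign of RNA integrity, was 0.18 to 0.24 in wild type and 0.31 to 0.41 in knockout cells in control medium, and 0.24 to 0.27 and 0.36 to 0.41 with Wnt3a. The part of these differences in the results was not tested.

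Values below are log2 intensities of the brightest probe set of a gene. Differences are between group means on that log2 scale, ± their standard error (SE) from limma, with n = 3 arrays per group, and p-values are adjusted over all genes tested, with a gene called higher or lower at an adjusted p under 0.05. Single arrays are named WT-control, WT-Wnt3a, KO-control or KO-Wnt3a with their number, for wild type (WT) and knockout (KO). RNA was taken from whole cultures, where fewer cells of a kind and less RNA per cell cannot be told apart. The knockout effect in control medium and the Wnt3a effect in wild type are both taken against the same 3 wild-type control arrays.

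Without Tcf3, in control medium, 10 of the 31 members were called higher, or 32.3%, where 19.9% of all genes were, and 6 were called lower, or 19.4% against 22.3%. The median difference was 0.07 over the members and 0.01 over all genes. Those higher were Asns, Cbs, Gpt2, Psph, Shmt2, Slc7a3, Sesn2, Atf4, Xbp1 and Nupr1, and those lower were Atf3, Cebpb, Ddit3, Trib3, Phgdh and Hspa5, so that both the transcription factors and the serine enzymes fell on both sides. In Wnt3a medium the knockout effect was called higher for 6 members (13.2% of all genes) and lower for 6 (14.7% of all genes), with a median of -0.03 against 0.01.

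In wild-type cells given Wnt3a, 16 members were called higher, or 51.6% against 18.9% of all genes, and 6 lower, or 19.4% against 22.6%. The median was 0.23, against -0.02 over all genes. In knockout cells 10 were called higher and 6 lower after Wnt3a, where 13.3% and 14.7% of all genes were, and the medians were 0.09 and -0.01. In both genotypes the higher side held Atf4, Nupr1, Sesn2, Asns, Psph, Shmt2, Cbs, Aldh18a1 and Eif4ebp1. The lower side held Pdia4, Calr, Sdf2l1, Xbp1 and Slc7a3 in both. The balance of higher and lower calls depends on the scaling. With each array centred on its median, the share of higher calls among all called genes went from 45.6% to 61.5% in wild type and from 47.5% to 66.3% in knockout cells, and the members were then 17 higher and 3 lower, and 12 higher and 3 lower. With quantile normalization repeated, the members were 13 higher and 8 lower in wild type, and 7 higher and 7 lower in knockout cells. Leaving out WT-control 3 left 14 of the 22 member calls in wild type, and leaving out KO-control 1 left 10 of the 16 in knockout cells.

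**Figure D1:**
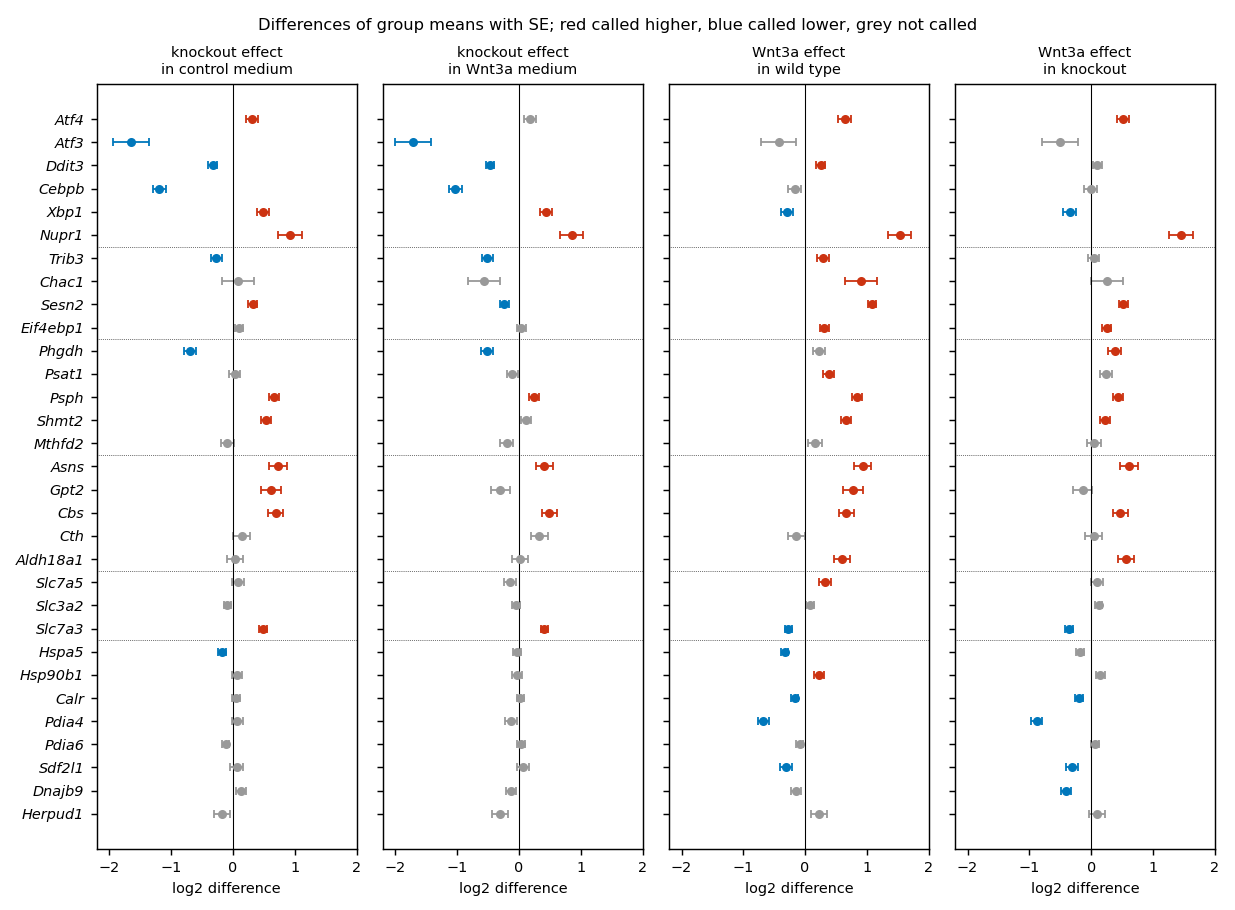
Log2 difference of group means with SE for the 31 members tested (rows, ordered by role) in 4 comparisons of 3 arrays against 3, with red for called higher, blue for called lower and grey for not called. Atf3 and Cebpb are far to the left in both knockout panels, Nupr1 is far to the right in all 4, and most of the endoplasmic reticulum chaperones at the bottom lie near 0 or to the left.

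Of the transcription factors, 6 were tested, and all 6 were called in control medium between genotypes, 3 in each direction, where 42.2% of all genes were called. Atf4, the central activator of the amino acid response, read 11.9, 11.62 and 11.73 on the wild-type control arrays, 11.97, 12.14 and 12.06 on the knockout control arrays, 12.52, 12.38 and 12.28 in wild type with Wnt3a, and 12.72, 12.59 and 12.41 in knockout with Wnt3a. The groups in control medium did not overlap, both Wnt3a groups lay above them, and the genotypes overlapped in Wnt3a medium. The Wnt3a effect on Atf4 was 0.64 ± 0.10 in wild type (1.56-fold, adjusted p = 0.000446) and 0.52 ± 0.10 in knockout (1.43-fold, adjusted p = 0.00311). The knockout effect in control medium was 0.31 ± 0.10 (adjusted p = 0.0255), a call that was lost without WT-control 2 or 3 or KO-control 2 or 3 (adjusted p 0.0622 to 0.0955). The other 2 Atf4 probe sets were not called in any of the 5 comparisons, with Wnt3a effects of 0.30 and 0.07 in wild type and 0.05 and 0.10 in knockout. With the mean of all 3, the calls in knockout cells after Wnt3a (0.22, adjusted p = 0.12) and between genotypes in control medium (0.23, adjusted p = 0.0925) were lost.

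Atf3, a stress-induced factor that often acts as a repressor, showed the largest difference between genotypes of any member. It read 8.81, 8.18 and 8.27 on the wild-type control arrays and 6.34, 7.34 and 6.63 on the knockout control arrays, and 8.61, 7.73 and 7.63 against 6.49, 6.03 and 6.28 with Wnt3a. Every knockout array lay below every wild-type array. The knockout effect was -1.65 ± 0.29 in control medium (3.15-fold lower, adjusted p = 0.000632) and -1.72 ± 0.29 with Wnt3a (3.30-fold lower, adjusted p = 0.0011), while the Wnt3a effects of -0.43 and -0.50 did not pass. Without WT-Wnt3a 1, the highest of its group, the Wnt3a effect in wild type was -0.74 and passed (adjusted p = 0.0441).

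Cebpb, a partner of Atf4 and Ddit3, followed the same genotype split. Its values were 8.7, 8.59 and 8.7 in wild type and 7.46, 7.59 and 7.37 in knockout in control medium, and 8.67, 8.38 and 8.43 against 7.64, 7.28 and 7.46 with Wnt3a. The genotypes did not overlap in either medium, and Cebpb fell by 1.19 ± 0.10 in the knockout in control medium (2.28-fold, adjusted p = 3.36e-06) and by 1.03 ± 0.10 with Wnt3a (2.04-fold, adjusted p = 3.22e-05). The Wnt3a effects on it, -0.17 and -0.01, did not pass.

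Ddit3, also called Chop, which promotes cell death under lasting stress, read 8.43, 8.27 and 8.3 in wild type and 8.01, 7.96 and 8.06 in knockout in control medium, and 8.57, 8.67 and 8.5 against 8.2, 8.13 and 8.01 with Wnt3a. Knockout arrays were lower in both media without overlap, and all 3 wild-type Wnt3a arrays were above the wild-type control arrays. Between genotypes the difference was -0.33 ± 0.07 in control medium (adjusted p = 0.00309) and -0.47 ± 0.07 with Wnt3a (adjusted p = 0.000647). The Wnt3a effect was 0.25 ± 0.07 in wild type (adjusted p = 0.0177), a call lost without WT-control 2 or 3 or WT-Wnt3a 2 (adjusted p 0.0555 to 0.0745), and 0.10 in knockout, which did not pass.

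Nupr1, a small stress-induced chromatin protein, rose the most after Wnt3a of all members in both genotypes. It read 7.6, 7.11 and 7.19 on the wild-type control arrays, 7.93, 8.75 and 7.99 on the knockout control arrays, 8.89, 8.69 and 8.91 in wild type with Wnt3a and 9.62, 9.73 and 9.69 in knockout with Wnt3a. Of these groups, knockout control and wild-type Wnt3a overlapped by 1 array, and all others were apart. Wnt3a against control medium gave 1.53 ± 0.19 in wild type (2.89-fold, adjusted p = 0.00011) and 1.45 ± 0.19 in knockout (2.74-fold, adjusted p = 0.000364). The knockout effect was 0.92 ± 0.19 in control medium (1.90-fold, adjusted p = 0.00184) and 0.85 ± 0.19 with Wnt3a (1.80-fold, adjusted p = 0.00594).

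Xbp1, the factor downstream of Ire1, moved in opposite directions with genotype and medium. It read 11.77, 12.21 and 12.03 in wild type and 12.57, 12.4 and 12.53 in knockout in control medium, and 11.59, 11.73 and 11.82 against 12.11, 12.14 and 12.2 with Wnt3a. The knockout arrays were higher in each medium without overlap, by 0.49 ± 0.10 (1.41-fold, adjusted p = 0.00203) and 0.44 ± 0.10 (1.36-fold, adjusted p = 0.00788). After Wnt3a Xbp1 was lower by -0.29 ± 0.10 in wild type (adjusted p = 0.0383, arrays overlapping) and -0.35 ± 0.10 in knockout (adjusted p = 0.0258). Both calls were lost with median centring (adjusted p = 0.117 and 0.0611). The first was also lost without WT-control 2 or 3, WT-Wnt3a 1 or 2, KO-control 3 or KO-Wnt3a 2 (adjusted p 0.0514 to 0.143), and the second without KO-control 1 or 3 or KO-Wnt3a 1 or 2 (adjusted p 0.0608 to 0.0829). In a fit of all probe sets, 2 of the 4 Xbp1 probe sets were called lower after Wnt3a in wild type and 3 in knockout. In the knockout 4 were called higher in control medium and 3 with Wnt3a.

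**Figure D2:**
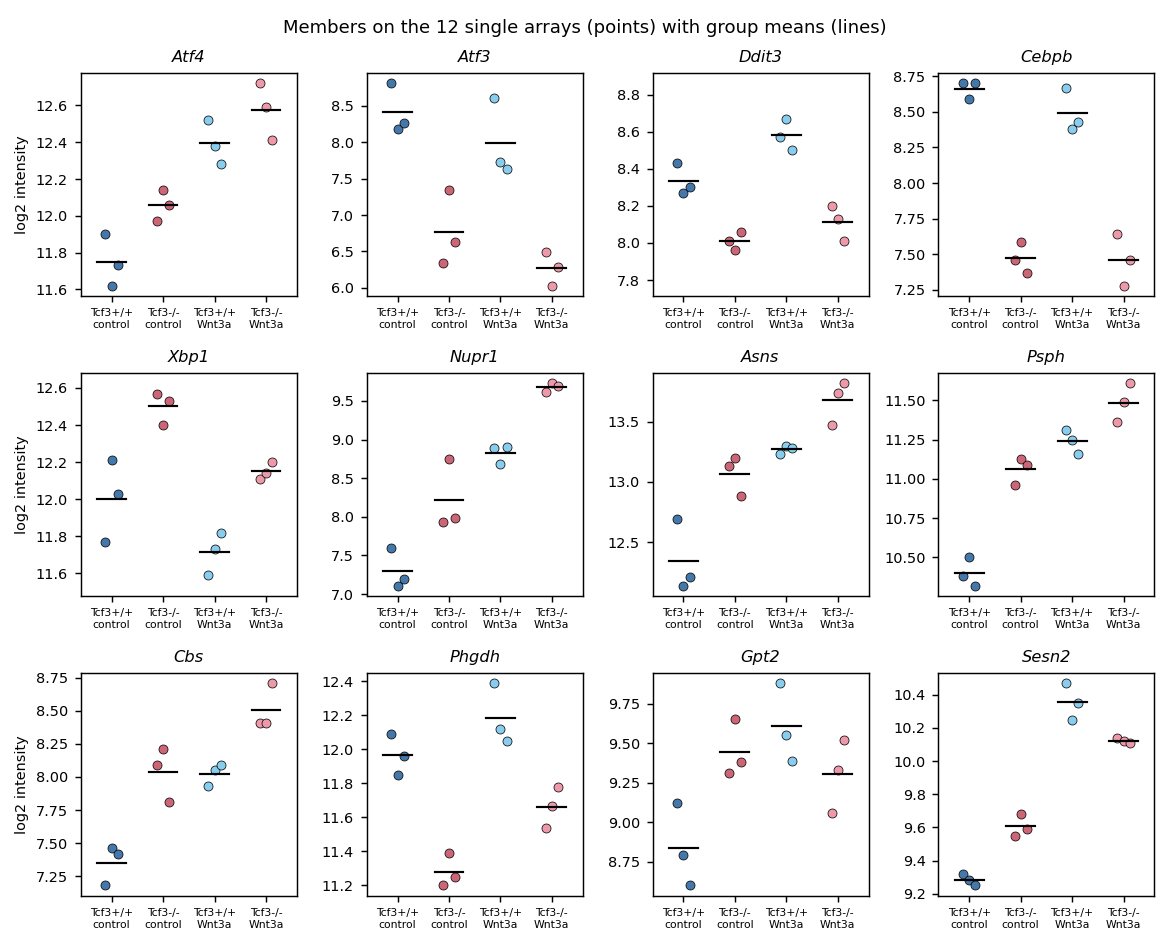
Log2 intensity (each panel with its own range) of 12 members on the single arrays, as points, with the mean of each group of 3 as a line. Atf3 and Cebpb are lower in both Tcf3-/- groups, Nupr1, Asns and Psph are lowest on the Tcf3+/+ control arrays, and Sesn2 is highest on the Tcf3+/+ Wnt3a arrays.

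The 4 feedback and growth-control genes tested, Sesn2, Chac1, Trib3 and Eif4ebp1, were all called higher after Wnt3a in wild type, and 2 of them, Sesn2 and Eif4ebp1, in knockout. Of all genes, 18.9% were called higher in wild type and 13.3% in knockout. Sesn2 restrains mTORC1 when leucine is short. It read 9.32, 9.28 and 9.25 in wild type and 9.55, 9.68 and 9.59 in knockout in control medium, then 10.47, 10.25 and 10.35 against 10.14, 10.12 and 10.11 with Wnt3a. No groups overlapped, and the knockout arrays were the higher ones in control medium and the lower ones with Wnt3a. The Wnt3a effect was 1.08 ± 0.07 in wild type (2.11-fold, adjusted p = 1.79e-06) and 0.52 ± 0.07 in knockout (1.43-fold, adjusted p = 0.000326). The difference between these effects was itself called, at -0.56 ± 0.09 (adjusted p = 0.0106), and passed in all 21 alternatives run for it (adjusted p 0.00553 to 0.0421). Between genotypes the difference was 0.32 ± 0.07 in control medium (adjusted p = 0.00171) and -0.24 ± 0.07 with Wnt3a (adjusted p = 0.019), the latter lost without WT-Wnt3a 1 or KO-Wnt3a 2 or 3 (adjusted p 0.0501 to 0.078) and with the mean of both probe sets (-0.05, adjusted p = 0.516). The other Sesn2 probe set was not called in any comparison, with Wnt3a effects of -0.08 and -0.14 and a difference between them of -0.06.

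Chac1, which degrades glutathione and is a strong Atf4 target, had the widest spread of all members among the wild-type control arrays. It read 9.06, 7.89 and 8.19 in wild type and 8.23, 8.75 and 8.41 in knockout in control medium, then 9.68, 9.28 and 8.92 against 8.72, 8.75 and 8.7 with Wnt3a. Wild-type control array 1 lay above the lowest wild-type Wnt3a array, so these groups overlapped. The Wnt3a effect in wild type was 0.91 ± 0.26 (1.88-fold, adjusted p = 0.0154), lost without WT-control 2 or 3 or WT-Wnt3a 1 (adjusted p 0.0569 to 0.0612). That in knockout was 0.26 and did not pass, and neither did the difference between them, -0.65 (adjusted p = 0.338). The knockout effect with Wnt3a was -0.57 (adjusted p = 0.124), and it passed without WT-control 1 (-0.57, adjusted p = 0.0342).

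Trib3, a pseudokinase that feeds back on Atf4, read 9.52, 9.37 and 9.28 in wild type and 9.01, 9.22 and 9.14 in knockout in control medium, then 9.73, 9.64 and 9.68 against 8.99, 9.2 and 9.31 with Wnt3a. The genotypes were apart in both media, most clearly with Wnt3a, where the knockout effect was -0.51 ± 0.09 (1.43-fold lower, adjusted p = 0.00168). In control medium it was -0.27 ± 0.09 (adjusted p = 0.035), lost without WT-control 1 or 2 or KO-control 1 or 3 (adjusted p 0.0623 to 0.137). The Wnt3a effect in wild type was 0.29 ± 0.09 (adjusted p = 0.025), lost without WT-control 2 or 3 or WT-Wnt3a 1 or 3 (adjusted p 0.0554 to 0.104), and in knockout it was 0.04. With the mean of both probe sets the knockout effect in control medium (-0.16, adjusted p = 0.171) and the Wnt3a effect in wild type (0.18, adjusted p = 0.118) did not pass.

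Eif4ebp1 encodes a repressor of cap-dependent translation. It read 12.96, 13.06 and 13.02 in wild type and 13.09, 13.23 and 13.03 in knockout in control medium, then 13.38, 13.36 and 13.23 against 13.28, 13.41 and 13.41 with Wnt3a. The media did not overlap in either genotype and the genotypes did overlap. Wnt3a against control medium gave 0.31 ± 0.07 in wild type (adjusted p = 0.00518) and 0.25 ± 0.07 in knockout (adjusted p = 0.0226). The second was lost without KO-control 1 or 3 or KO-Wnt3a 2 or 3 (adjusted p 0.0643 to 0.0968). A further probe set of Eif4ebp1 was called in the opposite direction, at -0.39 in wild type and -0.33 in knockout, and with the mean of the 3 probe sets neither effect passed (0.12, adjusted p = 0.086, and 0.09, adjusted p = 0.228).

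Serine is made from a glycolytic intermediate by Phgdh, Psat1 and Psph in turn, and Shmt2 and Mthfd2 pass its carbon into mitochondrial folate metabolism. Of these 5 genes, 2 were called higher and 1 lower in the knockout in control medium, and 3 higher and 0 lower after Wnt3a in each genotype. Over all genes, 19.9% were called higher and 22.3% lower in the knockout in control medium. After Wnt3a these shares were 18.9% and 22.6% in wild type, and 13.3% and 14.7% in knockout. Phgdh, the first enzyme, and Psph, the last, went opposite ways with genotype. Phgdh read 12.09, 11.85 and 11.96 in wild type and 11.2, 11.39 and 11.25 in knockout in control medium, then 12.39, 12.12 and 12.05 against 11.54, 11.67 and 11.78 with Wnt3a. The genotypes were apart in both media, and Phgdh fell by 0.69 ± 0.10 in the knockout in control medium (1.61-fold, adjusted p = 0.000177) and by 0.52 ± 0.10 with Wnt3a (1.44-fold, adjusted p = 0.00249). After Wnt3a it was higher by 0.38 ± 0.10 in knockout (adjusted p = 0.0154), a call lost without KO-control 1 or 3 or KO-Wnt3a 3 (adjusted p 0.0557 to 0.0561). The 0.22 in wild type did not pass (adjusted p = 0.0988), and it passed with median centring (0.29, adjusted p = 0.0397). The Phgdh probe sets are of the kind that can match related transcripts, and 2 more that also list another gene were not used, so its values are uncertain to that extent.

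Psph read 10.38, 10.5 and 10.32 on the wild-type control arrays, 10.96, 11.13 and 11.09 on the knockout control arrays, 11.31, 11.25 and 11.16 in wild type with Wnt3a, and 11.36, 11.49 and 11.61 in knockout with Wnt3a. The 4 groups stood in that order without overlap. The knockout effect was 0.66 ± 0.08 in control medium (1.58-fold, adjusted p = 4.44e-05), and the Wnt3a effect was 0.84 ± 0.08 in wild type (1.79-fold, adjusted p = 2.48e-05) and 0.43 ± 0.08 in knockout (1.34-fold, adjusted p = 0.00296). The difference between the Wnt3a effects, -0.42 (adjusted p = 0.0638), did not pass, and it passed without WT-control 2 (-0.46, adjusted p = 0.0433) or KO-Wnt3a 3 (-0.48, adjusted p = 0.0496). The knockout effect with Wnt3a, 0.24 (adjusted p = 0.0407), was lost without WT-control 3, any WT-Wnt3a array, KO-control 3, or KO-Wnt3a 2 or 3 (adjusted p 0.0512 to 0.141).

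Shmt2 read 10.93, 11.01 and 10.79 in wild type and 11.43, 11.43 and 11.48 in knockout in control medium, then 11.54, 11.56 and 11.6 against 11.53, 11.69 and 11.79 with Wnt3a. The wild-type control arrays were the lowest, and the genotypes overlapped with Wnt3a. The knockout effect in control medium was 0.54 ± 0.08 (1.45-fold, adjusted p = 0.000137), and the Wnt3a effect in wild type was 0.66 ± 0.08 (1.58-fold, adjusted p = 7.82e-05). The Wnt3a effect in knockout, 0.22 ± 0.08 (adjusted p = 0.0465), was lost without any 1 of 9 arrays (adjusted p 0.0535 to 0.157), the exceptions being WT-control 2 and 3 and KO-Wnt3a 1. The brightest probe set of Psat1 was called only after Wnt3a in wild type (0.38 ± 0.09, adjusted p = 0.00614). Its Wnt3a effect of 0.24 in knockout did not pass (adjusted p = 0.0653) and passed in 5 of 22 alternatives. Among these were the fits without WT-control 1 (adjusted p = 0.0438) or KO-control 2 (0.32, adjusted p = 0.0248). In a fit of all probe sets, 1 of the 2 Psat1 probe sets was called higher after Wnt3a in knockout, and 2 of 2 in wild type. The brightest probe set of Mthfd2 was not called in any comparison.

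The other enzymes of amino acid metabolism were Asns, Gpt2, Cbs, Cth and Aldh18a1, and 3 of these 5 were called higher in the knockout in control medium, 4 after Wnt3a in wild type and 3 after Wnt3a in knockout, with 0 lower in each. Among all genes, 19.9%, 18.9% and 13.3% were called higher in these comparisons, and 22.3%, 22.6% and 14.7% lower. Asns makes asparagine and is a textbook Atf4 target. It read 12.69, 12.14 and 12.21 on the wild-type control arrays, 13.13, 13.2 and 12.88 on the knockout control arrays, 13.23, 13.3 and 13.28 in wild type with Wnt3a, and 13.47, 13.74 and 13.82 in knockout with Wnt3a. The groups stood in that order without overlap, the order also seen for Psph. Between genotypes the difference was 0.73 ± 0.14 in control medium (1.65-fold, adjusted p = 0.00125), and the Wnt3a effect 0.93 ± 0.14 in wild type (1.90-fold, adjusted p = 0.000399) and 0.61 ± 0.14 in knockout (1.52-fold, adjusted p = 0.00808). The knockout effect with Wnt3a, 0.41 ± 0.14 (adjusted p = 0.0473), was lost without WT-control 3, any WT-Wnt3a array, KO-control 1 or 2, or KO-Wnt3a 2 or 3 (adjusted p 0.0527 to 0.143).

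Cbs, which starts the conversion of homocysteine to cysteine, read 7.18, 7.46 and 7.42 in wild type and 8.09, 8.21 and 7.81 in knockout in control medium, then 7.93, 8.05 and 8.09 against 8.41, 8.41 and 8.71 with Wnt3a. The genotypes were apart in both media. The knockout effect was 0.69 ± 0.12 in control medium (1.61-fold, adjusted p = 0.000544) and 0.49 ± 0.12 with Wnt3a (1.40-fold, adjusted p = 0.00929). The Wnt3a effect was 0.67 ± 0.12 in wild type (1.60-fold, adjusted p = 0.000946) and 0.47 ± 0.12 in knockout (1.39-fold, adjusted p = 0.0119), the latter lost without KO-control 3 (0.36, adjusted p = 0.0538). Cth, the next enzyme of that path, was not called in any comparison. Its knockout effect with Wnt3a, 0.33 (adjusted p = 0.094), passed without KO-Wnt3a 1 (0.49, adjusted p = 0.00802).

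Gpt2, a mitochondrial alanine transaminase, rose with Wnt3a in wild type and not in knockout. It read 9.12, 8.79 and 8.6 in wild type and 9.31, 9.65 and 9.38 in knockout in control medium, then 9.88, 9.55 and 9.39 against 9.06, 9.33 and 9.52 with Wnt3a. The wild-type control arrays were the lowest of the 4 groups apart from 1 overlap with KO-Wnt3a 1. Wnt3a against control medium gave 0.77 ± 0.16 in wild type (1.71-fold, adjusted p = 0.00317) and -0.14 ± 0.16 in knockout (adjusted p = 0.553), and the knockout effect in control medium was 0.61 ± 0.16 (1.53-fold, adjusted p = 0.00968). Aldh18a1, which makes the precursor of proline, read 10.33, 10.05 and 9.89 in wild type and 10.02, 10.41 and 9.96 in knockout in control medium, then 10.76, 10.66 and 10.64 against 10.59, 10.71 and 10.82 with Wnt3a. Genotypes overlapped and media did not, with Wnt3a effects of 0.60 ± 0.13 (1.52-fold, adjusted p = 0.00341) and 0.57 ± 0.13 (1.49-fold, adjusted p = 0.00715). Of its 5 probe sets 3 were not called after Wnt3a, with effects of 0.11 to 0.24 in wild type and 0.15 to 0.21 in knockout.

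The amino acid transporters did not share a direction. Slc7a3 imports arginine and lysine, and read 12.09, 12.11 and 12.07 in wild type and 12.64, 12.55 and 12.56 in knockout in control medium, then 11.9, 11.84 and 11.72 against 12.19, 12.25 and 12.25 with Wnt3a. All 4 groups were apart. Slc7a3 was higher in the knockout by 0.49 ± 0.06 in control medium (1.41-fold, adjusted p = 4.26e-05) and by 0.41 ± 0.06 with Wnt3a (1.33-fold, adjusted p = 0.000455), and lower after Wnt3a by -0.27 ± 0.06 in wild type (adjusted p = 0.004) and -0.36 ± 0.06 in knockout (adjusted p = 0.00156). Slc7a5, which carries large neutral amino acids, was called only after Wnt3a in wild type (0.32 ± 0.10, adjusted p = 0.0246), and the call was lost without WT-control 2 or 3 or WT-Wnt3a 1 (adjusted p 0.0581 to 0.0979). Its heavy chain Slc3a2 was not called in any comparison, with differences of -0.09 to 0.12. Slc7a11, the cystine importer, read between 3.79 and 4.32 on all arrays in both of its probe sets, below the floor, and Vldlr, a lipoprotein receptor that is raised by the unfolded protein response in some cells, read at most 6.04 in its brightest probe set.

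Chaperones and quality-control genes of the endoplasmic reticulum differed little with genotype: of 8 tested, 0 were called higher and 1 lower in control medium, and 0 in either direction with Wnt3a. Between genotypes, 42.2% of all genes were called in control medium and 28% with Wnt3a. After Wnt3a 4 of the 8 (50%) were called lower in each genotype, against 22.6% of all genes in wild type and 14.7% in knockout, and 1, Hsp90b1, was higher in wild type. Pdia4, a disulfide isomerase, read 10.21, 10.44 and 10.27 in wild type and 10.47, 10.37 and 10.3 in knockout in control medium, then 9.75, 9.68 and 9.44 against 9.43, 9.54 and 9.52 with Wnt3a. Media were far apart and genotypes overlapped, and Pdia4 fell by 0.68 ± 0.09 in wild type (1.61-fold, adjusted p = 0.000156) and by 0.88 ± 0.09 in knockout (1.84-fold, adjusted p = 0.000101).

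Hspa5 (BiP), the main chaperone of the compartment, read 13.7, 13.86 and 13.76 in wild type and 13.66, 13.54 and 13.57 in knockout in control medium, then 13.48, 13.44 and 13.41 against 13.47, 13.42 and 13.37 with Wnt3a. The media did not overlap in either genotype. The Wnt3a effect was -0.33 ± 0.06 in wild type (1.25-fold lower, adjusted p = 0.00169), and -0.18 ± 0.06 in knockout just missed (adjusted p = 0.0547). The latter passed in 6 of 22 alternatives (adjusted p down to 0.00952), among them the fits without WT-control 1 or 2 (adjusted p 0.0435 to 0.049). The knockout effect in control medium, -0.18 ± 0.06 (adjusted p = 0.0375), was lost without WT-control 2 or 3, WT-Wnt3a 2, KO-control 2 or 3, or KO-Wnt3a 2 (adjusted p 0.0535 to 0.126), and with median centring (-0.16, adjusted p = 0.0709). Of the other Hspa5 probe sets 1 was lower in wild type after Wnt3a (-0.32) and 1 was called the other way (0.25 in wild type, 0.20 in knockout), and with their mean the wild-type call was lost (-0.13, adjusted p = 0.0586).

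Sdf2l1, which assists BiP, read 9.23, 9.57 and 9.42 in wild type and 9.58, 9.44 and 9.36 in knockout in control medium, then 9.14, 9.06 and 9.06 against 8.99, 9.19 and 9.27 with Wnt3a. The media did not overlap in either genotype, and the Wnt3a effect was -0.31 ± 0.10 in both (adjusted p = 0.0233 in wild type and 0.0357 in knockout). Dnajb9, a BiP co-chaperone and Xbp1 target, read 9.4, 9.75 and 9.62 in wild type and 9.76, 9.69 and 9.71 in knockout in control medium, then 9.45, 9.41 and 9.46 against 9.32, 9.35 and 9.25 with Wnt3a. It was lower after Wnt3a in knockout, by -0.41 ± 0.08 without overlap (1.33-fold, adjusted p = 0.00318), while -0.15 in wild type did not pass. Without WT-control 1, the lowest of its group, the wild-type effect was -0.25 and passed (adjusted p = 0.0149), and without WT-control 2 the knockout effect in control medium passed (0.21, adjusted p = 0.0403).

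Calr, a calcium-binding lectin chaperone, was lower after Wnt3a by -0.17 (adjusted p = 0.0336) and -0.20 (adjusted p = 0.0236). The calls of Calr and Sdf2l1 were lost in both genotypes with median centring (adjusted p 0.084 to 0.228), which leaves 2 chaperones lower in each genotype. For Calr they were also lost without WT-control 2 or 3 or WT-Wnt3a 1 or 2 in wild type (adjusted p 0.0666 to 0.102), and without KO-control 1 or 2 or KO-Wnt3a 2 or 3 in knockout (adjusted p 0.0564 to 0.0642). For Sdf2l1 they were lost without WT-control 2 or 3 or WT-Wnt3a 2 or 3 in wild type (adjusted p 0.0624 to 0.0869), and without WT-control 3, KO-control 1 or 2 or KO-Wnt3a 1 or 2 in knockout (adjusted p 0.0518 to 0.123). Hsp90b1 (Grp94) was higher after Wnt3a in wild type, by 0.23 ± 0.08 (adjusted p = 0.0279), lost without WT-control 1 or 3 or WT-Wnt3a 2 or 3 (adjusted p 0.0616 to 0.086). With quantile normalization repeated, that gain was 0.12 and did not pass (adjusted p = 0.186). The brightest probe sets of Pdia6 and of Herpud1, a factor of the degradation pathway, were not called in any comparison. The dimmer Pdia6 probe set was called lower after Wnt3a in knockout.

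The difference between the Wnt3a effects in the 2 genotypes, the interaction, was called lower for 3 members and higher for 0, where 1.88% and 2.2% of all genes were, and its median was -0.12 over the members and 0.01 over all genes. These 3 were Gpt2 (-0.91 ± 0.23, adjusted p = 0.0492), Sesn2 and Shmt2 (-0.43 ± 0.11, adjusted p = 0.0479), each with the smaller Wnt3a effect in knockout cells. For Gpt2 the call was lost without any 1 of 10 arrays, the exceptions being WT-control 1 and KO-Wnt3a 3 (adjusted p 0.0557 to 0.126). For Shmt2 it was lost without any 1 of 9 arrays, the exceptions being WT-control 2, WT-Wnt3a 1 and KO-Wnt3a 3 (adjusted p 0.0693 to 0.124). In a fit of all probe sets the brightest Gpt2 probe set was not called (adjusted p = 0.0512), and the other 3 were, at -0.81, -0.84 and -0.85 (adjusted p = 0.0336, 0.0273 and 0.0142). In that fit 0 of the 4 Shmt2 probe sets were called, at -0.22 to -0.43 (adjusted p 0.0534 to 0.408).

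**Figure D3:**
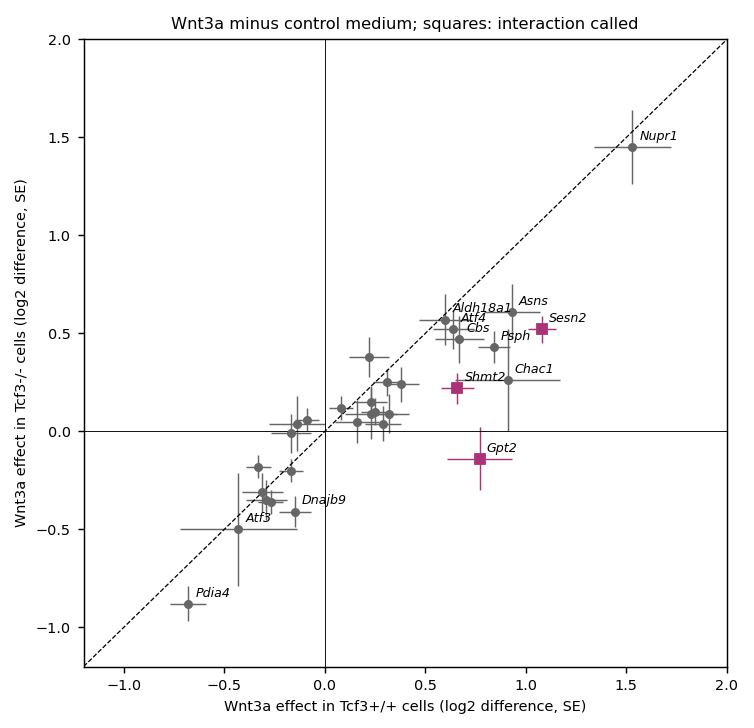
Wnt3a effect (log2 difference of group means, with SE as bars) in Tcf3+/+ cells on the x axis and in Tcf3-/- cells on the y axis for the 31 members tested, with the dashed line where both are equal. Squares mark Sesn2, Gpt2 and Shmt2, whose effects differed between genotypes, all below the line.

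Of the 33 members on the array 24 have several probe sets, and these did not always move together. For Asns, Cbs and Gpt2 every probe set was called higher after Wnt3a in wild type. For Mthfd2 and Hsp90b1, chosen after their values were seen, the brightest probe set understated the other. The second Mthfd2 probe set gave 1.13 in wild type (adjusted p = 1.83e-05) and 0.98 in knockout (adjusted p = 0.000121), against 0.16 and 0.05 in the brightest. The second Hsp90b1 probe set gave 1.01 (adjusted p = 2.76e-06) and 0.82 (adjusted p = 3.37e-05), against 0.23 and 0.15. The 3' minus 5' difference of the Tfrc probe sets was 1.51 to 1.65 in control medium and 1.08 to 1.14 with Wnt3a in wild type, and 1.25 to 1.62 and 1.14 to 1.26 in knockout, where the ranges overlap. Its part in these differences between probe sets was not tested.

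**Figure D4:**
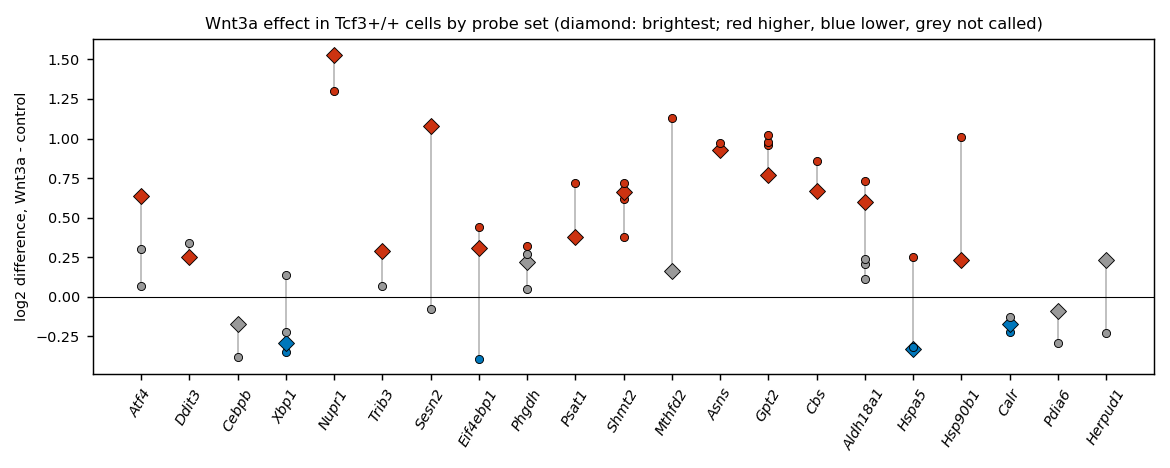
Wnt3a effect in Tcf3+/+ cells (log2 difference) for each tested probe set of the members with several, with a diamond for the brightest probe set and red, blue and grey for called higher, called lower and not called. The probe sets of Asns and Cbs lie close together, while those of Sesn2, Mthfd2, Hsp90b1 and Eif4ebp1 spread widely.

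Other genes of these pathways were taken in lists by function, also with earlier results of these data known. Of 99 such genes tested, 16 were called higher and 22 lower in the knockout in control medium, 32 and 19 after Wnt3a in wild type, 19 and 12 after Wnt3a in knockout, and 7 and 18 in the knockout with Wnt3a. In the knockout in control medium these are 16.2% and 22.2%, near the 19.9% and 22.3% of all genes. After Wnt3a they are 32.3% and 19.2% in wild type, against 18.9% and 22.6%, and 19.2% and 12.1% in knockout, against 13.3% and 14.7%, and for the knockout with Wnt3a 7.07% and 18.2%, against 13.2% and 14.7%. The counts of the single lists below are to be read against the same shares of all genes, and most lists are short. With quantile normalization repeated, the counts after Wnt3a were 23 higher and 31 lower in wild type and 15 higher and 16 lower in knockout, so that their balance turned. The share of higher calls among all called genes moved as well, from 45.6% to 40.7% in wild type and from 47.5% to 43.9% in knockout. The last count of 25 fell to 10, 15 and 13 without WT-Wnt3a 1, WT-Wnt3a 2 and KO-Wnt3a 2. The aminoacyl-tRNA synthetases, which charge tRNAs and many of which are Atf4 targets, had the most calls in 1 direction: with the exportin Xpot, 17 of 20 were higher and 0 lower after Wnt3a in wild type (median 0.27), and 11 and 0 in knockout (median 0.22). Cars rose by 1.02 (2.03-fold, adjusted p = 4e-06) and Eprs by 0.82 (1.76-fold, adjusted p = 0.000317) in wild type, and Aars rose by 0.48 in knockout. With quantile normalization repeated the counts were 9 higher and 2 lower (median 0.16), and 8 higher and 1 lower (median 0.14). In the knockout in control medium 4 were higher, among them Cars (0.43) and Tars (0.32).

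Among 14 eIF2 kinases, stress sensors and feedback genes, 4 were higher and 1 lower in the knockout in control medium, 5 and 1 after Wnt3a in wild type, and 2 and 1 after Wnt3a in knockout. Eif2ak1, the haem-regulated eIF2 kinase, rose by 0.58 (adjusted p = 0.000271) and Ppp1r15b, a subunit of the eIF2 phosphatase, by 0.47 (adjusted p = 0.00086) after Wnt3a in wild type. Atf6b fell by 0.39 after Wnt3a in knockout, and Eif2ak2 was higher in the knockout with Wnt3a (0.32). Among 9 further amino acid transporters 2 were higher and 3 lower in the knockout in control medium, 3 and 3 after Wnt3a in wild type, and 2 and 2 in knockout. Slc7a1 (0.48) and Slc1a5 (0.47) were higher in the knockout in control medium and Slc7a6 (-0.54) and Slc38a1 (-0.39) lower, and Slc25a22 fell by 0.58 and 0.44 after Wnt3a in the 2 genotypes.

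Among 24 further folding and degradation genes of the endoplasmic reticulum, 1 was higher and 8 lower after Wnt3a in wild type, and 2 and 6 in knockout. In the knockout in control medium 1 was higher and 8 lower. Syvn1, a ubiquitin ligase of the degradation pathway, fell by 0.54 after Wnt3a in wild type, Derl3 by 0.57 and Hyou1 by 0.48 in knockout, and Pdia5 went the other way (0.34 and 0.43). Derl1 (-0.42) was lower in the knockout in control medium and Ero1b (0.48) higher. With quantile normalization repeated the count in wild type was 1 higher and 13 lower, and with median centring 2 and 7. Of all called genes, 40.7% and 61.5% were higher under these settings.

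Of 13 further one-carbon, glycine and proline enzymes, 2 were higher and 4 lower in the knockout in control medium, 3 and 3 after Wnt3a in wild type, and 1 and 1 in knockout. Mthfd2l, a paralog of Mthfd2, was 4.33-fold lower in the knockout in control medium (-2.12 ± 0.26, adjusted p = 4.33e-05), and fell by 1.31 after Wnt3a in wild type. Shmt1, the cytosolic counterpart of Shmt2, was higher by 0.31 in the knockout and by 0.50 after Wnt3a in wild type. Oat, which links ornithine to proline, rose 2.23-fold after Wnt3a in knockout cells (1.16, adjusted p = 2.07e-05).

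Among 11 cytosolic heat shock genes 1 was higher and 3 lower in the knockout in control medium, and 1 and 2 after Wnt3a in wild type. The lower ones included Hspa1a (-0.87) and Hspa1b (-1.11) in the knockout and -0.93 and -0.88 after Wnt3a, near-identical copies whose signals are not independent. Of 8 glutathione and Nrf2 genes 2 were higher and 3 lower in the knockout in control medium, 2 and 2 after Wnt3a in wild type, and 1 and 1 in knockout. Gss, which completes glutathione synthesis, was higher in the knockout by 0.96 (1.95-fold, adjusted p = 2.79e-05), and Gclc, which begins it, was lower by -0.61 (adjusted p = 0.000986) and rose by 0.62 after Wnt3a in knockout cells.

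**Figure D5:**
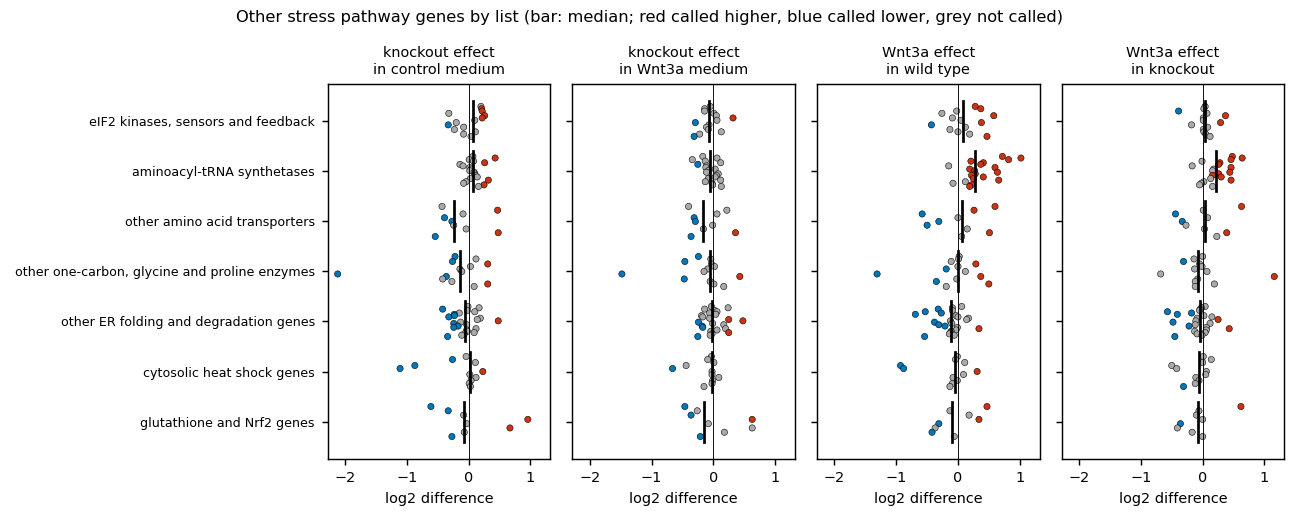
Log2 difference of group means for 99 other pathway genes, as points, by list (rows) in 4 comparisons, with the list median as a bar and red, blue and grey for called higher, called lower and not called. After Wnt3a the aminoacyl-tRNA synthetases lie mostly to the right of 0, while the folding and degradation genes have 8 of 24 called lower in wild type.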

How the data were processed

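Per the submitters' processing notes, the authors processed the arrays with RMA (version not given in the sources used here). They deposited linear intensities of 45101 probe sets, from which log2 was taken with no pseudocount. Gene symbols came from the platform table: 34945 had 1 symbol, 932 several, 9160 were unlisted and 64 were controls. The brightest probe set stood for a gene, and genes above the 40th percentile of all values (5.56 log2, an intensity of 47.2) on at least 3 of 12 arrays were kept. A linear model with 1 mean per group used all 12 arrays (lmFit and eBayes of limma 3.58.1, R 4.3.3), with p-values adjusted by the Benjamini-Hochberg method over 13811 genes, threshold 0.05. The fit was tested on simulated data. The median SE of a difference was 0.089, and 3 arrays per group limit the precision.

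The members and lists were chosen with earlier results of these data known. Single-array values are given for Atf4, Ddit3, Atf3, Xbp1, Hspa5, the 5 largest rises and falls among called members per pairwise comparison, members called in the interaction, and members with probe sets of opposite calls. For the other lists the 2 largest rises and falls per pairwise comparison were taken. Only those whose call and direction held under every alternative are printed, and not all of these are. Some genes of these lists were not matched to a probe set with a single symbol and are not analysed here. Slc7a3, Eif4ebp1, Slc7a5 and Cth had no promoter window. Alternatives were other filters, probe set rules, scalings, a pseudocount of 16, another prior, fewer arrays and the replicate number as a block.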

Additional observations from a re-analysis of the deposited data

Results flagged for a closer look

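The Wnt3a effect differed between genotypes, by limma's interaction test, for 5 genes among the members and the other pathway lists. These were 3 of the 31 members (9.68%) and 2 of the 99 other pathway genes (2.02%), where 4.08% of all genes were called. Subtracting the wild-type effect from the knockout effect gave, for the members, -0.91 for Gpt2 (adjusted p = 0.0492), -0.56 for Sesn2 (adjusted p = 0.0106) and -0.43 for Shmt2 (adjusted p = 0.0479). For Atf6, a sensor of the unfolded protein response, it was -0.35 (adjusted p = 0.0426), with group means of 8.21 and 8.58 in wild type without and with Wnt3a and 8.42 and 8.44 in knockout. The Atf6 call was lost in 14 of 21 alternatives (adjusted p up to 0.102), 10 of them with 1 array left out, the exceptions being array 2 of wild type in control medium and array 1 of wild type with Wnt3a. For Oat it was 0.79 (adjusted p = 0.0104), with means of 10.98 and 11.35 in wild type and 10.63 and 11.79 in knockout. The calls of Sesn2 and Oat held under all 21 alternatives run for the interaction. Groups of 3 arrays are too small to test for arrays that stand apart.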

How the results depend on the processing

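Over the 5 comparisons the members had 69 calls, of which 43 held under every one of up to 22 alternatives run. With 1 array left out, 112 of the members' calls were lost and 11 gained over all such fits, with 0 reversed; under the other settings 56 were lost, 16 gained and 1 reversed. That one was Pdia6, whose Wnt3a effect in knockout was 0.06 and became -0.22 (adjusted p = 0.0235) with the mean of all its probe sets. Its dimmer probe set was called lower there in a fit of all probe sets. It read 6.45, 6.43 and 6.56 on the knockout control arrays and 5.82, 6.01 and 6.07 on the knockout Wnt3a arrays. The count of members called in the interaction went from 3 to 1 with no filter, with all probe sets tested, with median centring and with the replicate block, and ran from 1 to 4 with 1 array left out. With 1 array left out the counts ran from 14 to 22 after Wnt3a in wild type, 10 to 17 after Wnt3a in knockout, 13 to 16 for the knockout in control medium and 9 to 13 for the knockout with Wnt3a. With the replicate number as a block they were 21, 14, 14 and 10, against 22, 16, 16 and 12. Samples of the same number did not deviate together (correlations from -0.26 to 0.24, and 1 of 12 arrays correlated best with its own number). With 3 arrays per group this cannot settle whether they share more than a number, and the labels do not say. The interaction was not fitted with only the arrays compared, since it needs all 4 groups. When an array was left out, the filter and the brightest probe set stayed those of all 12 arrays. Signal near the floor limits Slc7a11 and Vldlr.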

Other observations

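Within groups, 1 array often held the highest member values. Of the 31 members tested, array 1 of wild type with Wnt3a was the highest of its group for 21 and array 2 of knockout in control medium for 20, while over all genes tested the same arrays were highest for 43% and 25.5%. Array 1 of wild type in control medium was highest for 17 members, against 34% of all genes. These counts were made after the values were seen, and the members are not independent of each other.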
